A study of Drosophila melanogaster with 12 samples.

Results

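The Vps13 family of lipid transfer genes was followed in RNA from whole heads of Drosophila melanogaster after cell-specific knockdown of *PIG-A*, the gene for the catalytic subunit of the enzyme that starts glycosylphosphatidylinositol anchor synthesis. The members were the rows of the count table with the FlyBase symbols *Vps13*, *Vps13B* and *Vps13D*, 3 of 17737 genes, and all 3 passed the filter on low counts in every comparison. The family was chosen by the measured levels of *Vps13B*, which were lower in both knockdowns than in controls, so the differences between knockdown and control heads for these 3 genes are given as a description, without a test. The comparison of the drivers was not used in that choice and was tested.

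Heads were collected from 4 genotypes with 3 biological replicates each. Neuron-specific knockdown flies carried ELAV-GAL4 x RNAi, with the pan-neuronal driver elav-GAL4 and the *PIG-A* RNAi line BDSC 62696, and their controls carried ELAV-GAL4 x AttP, with the same driver over the empty landing site stock BDSC 36304. Glia-specific knockdown flies carried REPO-GAL4 x RNAi, with the pan-glial driver repo-GAL4 and the same RNAi line, and their controls carried REPO-GAL4 x AttP with the same landing site stock. The methods describe 3-day-old males and 10 heads per sample, and the labels give 3 to 5 days and 5 to 10 flies. Because every knockdown fly carried the RNAi stock and every control fly the AttP stock, the knockdown and the genetic background of the stocks cannot be told apart. Whole heads hold neurons, glia, photoreceptors, muscle, fat body and hemocytes. In such bulk RNA fewer cells of a type and less RNA per cell cannot be told apart either. Below, a value given as in neurons or in glia is that of the neuron-specific or glia-specific knockdown comparison. Both comparisons are of whole heads, and no cell type was measured by itself.

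VPS13 proteins are long, rod-shaped proteins with a hydrophobic groove along which phospholipids are thought to slide from a donor membrane to an acceptor membrane at sites where organelles touch. They belong to the bridge-like lipid transfer proteins, with the autophagy protein Atg2 and the proteins encoded in flies by *tweek*, *hobbit* and *CG34126*. In humans, loss of *VPS13A* causes chorea-acanthocytosis, loss of *VPS13B* causes Cohen syndrome, and variants of *VPS13C* and *VPS13D* underlie early parkinsonism and a recessive ataxia. Human VPS13B resides largely at the Golgi complex, and fly Vps13D is needed for normal mitochondrial size and clearance. Fly *Vps13* is the counterpart of human *VPS13A* and *VPS13C*, and its loss shortens life and causes neurodegeneration.

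On the dm6 assembly, *Vps13B* (FBgn0039727) lies on the plus strand of 3R from 29935978 to 29948207. It has 14 merged exons and 2 annotated transcripts, a long one of 11469 bases that encodes 3731 residues and a short one of 2309 bases that encodes 529 residues. The counts are per gene, so the transcripts were not separated, and no other annotated gene overlaps its exons. *Vps13* (FBgn0033194) lies on the plus strand of 2R from 7566809 to 7580675, with 30 merged exons and a longest protein of 3321 residues. The opposite-strand genes *blow* and *asRNA:CR45130* cover 1249 of its 10480 exon bases, 11.9%. How strand was treated in counting is not given in the sources used here, and the reads of these overlaps are uncertain. *Vps13D* (FBgn0052113) lies on the plus strand of 3L from 12755049 to 12768605, with 19 exons and a protein of 3919 residues, and shares 95 exon bases, 0.798%, with *Hip1*.

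Libraries held 20694850 to 31893782 counts, and 3 counts, taken as the detection floor, correspond to 0.0825 to 0.143 CPM (read counts scaled to the library total). Replicates differed by far more than counting error in every group (chi-square over genes, divided by the number of genes, 7.82 to 278). *PIG-A* itself averaged 2.86 ± 0.278 CPM in neuron-specific knockdown heads and 4.18 ± 0.871 CPM in their controls (SD, n = 3 each), and 4.71 ± 0.660 CPM in glia-specific knockdown heads and 4.84 ± 0.0264 CPM in their controls (SD, n = 3 each). By edgeR's quasi-likelihood test with Benjamini-Hochberg adjustment neither difference passed (log2 fold change -0.55, adjusted p = 0.284, and -0.04, adjusted p = 0.906). *mthl8*, a methuselah-like receptor gene, had 0 counts in all 6 knockdown libraries, against 131 to 231 counts in the neuron controls and 120 to 192 in the glia controls. Markers of neurons (8 genes), glia (8), photoreceptors (7), muscle (8), fat body (6) and hemocytes (6) were summed, and none had 0 counts throughout. In each knockdown comparison 4 of the fat body and 5 of the hemocyte markers passed the filter on low counts, and all of the others did. The summed muscle markers stood apart in neuron-specific knockdown replicate 3 (15370 CPM) and in glia control replicate 3 (15964 CPM), with 3351 to 5210 CPM in the other libraries. Other tissues differed there too. The summed neuron markers were at 4615 and 4375 CPM in these libraries, against 2953 to 3743 CPM in the others. Within their groups both had the highest glia sum (2983 and 2870 CPM) and the lowest photoreceptor sum (34825 and 43805 CPM). The summed fat body markers were at 14134 to 20468 CPM in glia-specific knockdown heads and 4422 to 11150 CPM in their controls, and those of hemocytes at 671 to 811 CPM and 485 to 604 CPM in the same groups. In neuron-specific knockdown heads the glia markers were at 2030 to 2983 CPM, against 1843 to 1967 CPM in their controls, and the fat body markers at 9112 to 15513 CPM, highest in replicate 1, against 9143 to 9250 CPM in their controls.

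*Vps13B* was the member that differed most between knockdown and control heads, under both drivers. Its normalized read counts, in CPM after scaling of all 12 libraries by the trimmed mean of M-values (TMM), were 33.2, 30.7 and 29.0 in neuron-specific knockdown replicates 1, 2 and 3, against 69.8, 90.9 and 78.6 in the neuron controls. The groups did not overlap, and the highest knockdown library lay well below the lowest control. The means were 31.0 ± 2.11 CPM in knockdown heads and 79.8 ± 10.6 CPM in controls (SD, n = 3 each), a log2 fold change of -1.37 (SE 0.12), so that knockdown heads held 38.8% of the control level. Among all 9983 genes tested in this comparison, 48 had a lower log2 fold change than *Vps13B*. For scale, 3.22% of the genes tested were at least 1.5-fold lower and 11% had all 3 knockdown libraries below all 3 controls, while 0.16% were called, that is, differed at least 1.5-fold with an adjusted p no higher than 0.05. Since *Vps13B* was chosen for this difference, nothing is read from its place among them.

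In glia-specific knockdown heads *Vps13B* stood at 32.9, 34.1 and 33.4 CPM, against 73.2, 52.5 and 64.9 CPM in the glia controls. The knockdown libraries lay close together, the controls were spread, and the groups again did not overlap. The means were 33.5 ± 0.600 CPM in knockdown heads and 63.5 ± 10.4 CPM in controls (SD, n = 3 each), a log2 fold change of -0.93 (SE 0.14), or 52.5% of the control level. A lower log2 fold change was found for 293 of the 9951 genes tested, 6.48% of which were at least 1.5-fold lower and 13.6% of which had all knockdown libraries below all controls, with 3.6% called in either direction. Of the 9791 genes tested in both comparisons, 0.735% were at least 1.5-fold lower in both. The difference between the neuron-specific and the glia-specific log2 fold changes of *Vps13B* was -0.44 (SE 0.18), also given without a test.

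As raw reads, the 6 knockdown libraries held 748 to 907 counts of *Vps13B* and the 6 control libraries 1340 to 2682, all far above the floor. The knockdown libraries of both drivers thus fell in the narrow band of 29.0 to 34.1 CPM, while the controls covered 52.5 to 90.9 CPM. *Vps13B* was chosen by these values, and the share of all genes with such a separation over both drivers was not counted. Relative to its mean, the spread of *Vps13B* was 6.83% in neuron-specific knockdown heads and 13.3% in their controls, and 1.79% in glia-specific knockdown heads and 16.4% in their controls. Without the neuron-specific knockdown library rich in muscle markers the log2 fold change of *Vps13B* was -1.32, and without the glia control rich in muscle markers it was -0.91. The summed markers of fat body and hemocytes in the glia comparison, and of glia in the neuron comparison, were higher in every knockdown library than in every control, and the fat body sum was high in 1 neuron-specific knockdown library. Their part in the *Vps13B* values was not tested.

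**Figure D1:**
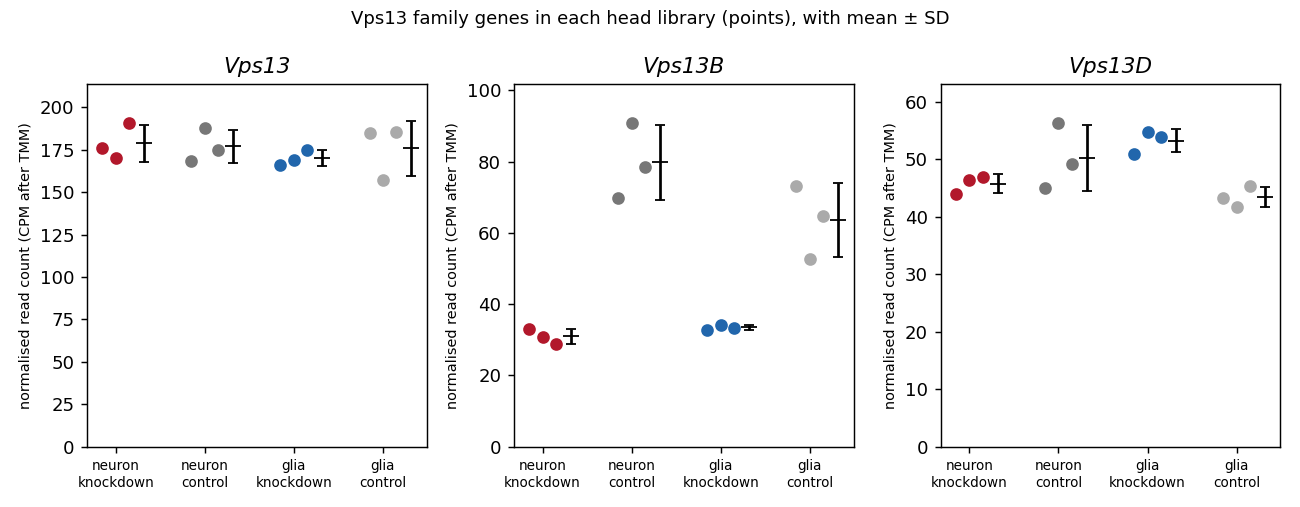
Normalized read count (CPM after TMM, linear axes from 0) of *Vps13*, *Vps13B* and *Vps13D* in each head library, as points in the order of replicates, with bars for the mean ± SD of each group of 3. The 6 knockdown libraries of *Vps13B* sit between 29.0 and 34.1 CPM, below all 6 controls at 52.5 to 90.9 CPM, while the 4 groups of *Vps13* overlap. *Vps13B* was chosen for lower levels in both knockdowns. Within a driver, 11% of genes tested in the neuron-specific and 13.6% in the glia-specific comparison had every knockdown library below every control. The share over both drivers together was not counted.

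*Vps13*, the most abundant member, had group means between 170.0 and 178.8 CPM in all 4 groups. It had 176, 170 and 191 CPM in neuron-specific knockdown heads, against 168, 188 and 175 CPM in their controls, and the groups overlapped. The log2 fold change was 0.01 (SE 0.08), with means of 178.8 ± 10.9 CPM in knockdown heads and 176.9 ± 9.83 CPM in controls (SD, n = 3 each). Under repo-GAL4 it had 166, 169 and 175 CPM in knockdown heads, against 185, 157 and 186 CPM in controls. The single low control, replicate 2, lay below all 3 knockdown libraries, and the log2 fold change was -0.05 (SE 0.11).

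*Vps13D* differed in opposite directions under the drivers, by much less than *Vps13B*. It had 44.0, 46.4 and 47.0 CPM in neuron-specific knockdown heads, against 45.1, 56.4 and 49.3 CPM in their controls, and these groups overlapped (log2 fold change -0.14, SE 0.10). Its level was 51.0, 54.8 and 53.9 CPM in glia-specific knockdown heads, against 43.2, 41.8 and 45.3 CPM in their controls. Here every knockdown library lay above every control, with means of 53.2 ± 1.98 CPM in knockdown heads and 43.4 ± 1.79 CPM in controls (SD, n = 3 each) and a log2 fold change of 0.29 (SE 0.08), a level 1.22-fold that of controls. Such a separation upwards was found in 15.9% of the genes tested in the glia-specific comparison. The difference between its neuron-specific and glia-specific log2 fold changes was -0.43 (SE 0.12), without a test.

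Ratios within a library do not depend on the scaling between libraries. For every 100 reads of *Vps13D* there were 67.8 ± 7.04 reads of *Vps13B* in neuron-specific knockdown heads and 158.5 ± 3.27 in their controls (SD, n = 3 each). There were 62.9 ± 1.36 in glia-specific knockdown heads and in their controls 146.1 ± 21.9 (SD, n = 3 each). For every 100 reads of *Vps13*, those of *Vps13B* numbered 15.2 to 18.9 in neuron-specific knockdown libraries and 41.5 to 48.5 in their controls, and 19.1 to 20.2 in glia-specific knockdown libraries and 33.5 to 39.7 in their controls. Each knockdown group lay apart from its control on this scale, which uses the same *Vps13B* counts by which the family was chosen. *Vps13B* made up 12.1 ± 1.17% of the reads of the 3 genes in neuron-specific knockdown heads and 25.9 ± 1.24% in their controls, and 13.04 ± 0.255% in glia-specific knockdown heads and 22.4 ± 1.75% in their controls (SD, n = 3 each). The summed level of the family was 247 to 267 CPM in neuron-specific knockdown heads and 283 to 335 CPM in their controls, and in glia the ranges of 249.8 to 262 CPM in knockdown heads and 251 to 301 CPM in controls overlapped.

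To compare the members with each other, levels were divided by the merged exon length (CPM per kb). *Vps13* was the highest member in all 12 libraries, with group means of 17.1 CPM per kb in neuron-specific knockdown heads, 16.9 in their controls, 16.2 in glia-specific knockdown heads and 16.8 in their controls. The order of the other members differed between knockdown and control libraries. *Vps13B* was at 2.53 to 2.89 CPM per kb in neuron-specific knockdown heads and 6.09 to 7.93 in their controls, whereas *Vps13D* was at 3.70 to 3.95 and 3.79 to 4.74 CPM per kb in the same groups. In glia-specific knockdown heads *Vps13B* was at 2.87 to 2.97 CPM per kb and in their controls at 4.58 to 6.38, whereas *Vps13D* was at 4.29 to 4.60 and 3.51 to 3.81 CPM per kb. *Vps13B* therefore lay below *Vps13D* in 6 of 6 knockdown libraries and above it in 6 of 6 control libraries, and the ranges did not overlap within any group. This order uses the same *Vps13B* counts by which the family was chosen, so nothing further is read from it.

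**Figure D2:**
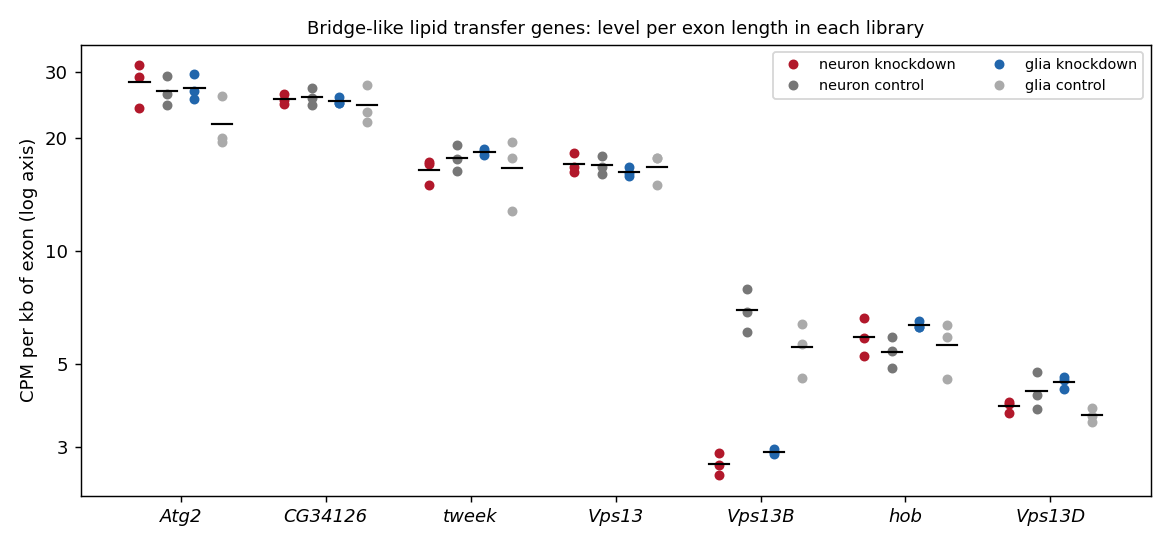
Level per exon length (CPM per kb of merged exon, log axis) of the 3 Vps13 family genes and 4 bridge-like relatives in each library, as points coloured by group, with a line at each group mean. *Vps13B* is at 2.53 to 2.97 CPM per kb in knockdown libraries and 4.58 to 7.93 in controls. It was chosen for lower levels in both knockdowns. Of all genes tested, 11% in the neuron-specific and 13.6% in the glia-specific comparison had every knockdown library below every control.

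The drivers themselves were compared to ask whether the members differed between elav-GAL4 and repo-GAL4 flies of the same kind. In this comparison the driver, its stock and any collection day cannot be told apart. In control heads *Vps13B* averaged 79.8 CPM under elav-GAL4 and 63.5 CPM under repo-GAL4, and their ranges overlapped. The log2 fold change of elav-GAL4 over repo-GAL4 was 0.33 (SE 0.16, 95% interval -0.03 to 0.69), and it did not pass by edgeR's quasi-likelihood test (adjusted p = 0.290). *Vps13D* differed by 0.22 (95% interval -0.04 to 0.47, adjusted p = 0.326 by edgeR) and *Vps13* by 0.02 (95% interval -0.25 to 0.28, adjusted p = 0.958 by edgeR). The sign of the *Vps13* value turned in 3 alternatives, all close to 0. In knockdown heads *Vps13B* averaged 31.0 CPM under elav-GAL4 and 33.5 CPM under repo-GAL4, a log2 fold change of -0.11 (SE 0.07, 95% interval -0.29 to 0.06, adjusted p = 0.348 by edgeR). *Vps13D* was at 44.0 to 47.0 CPM under elav-GAL4 and 51.0 to 54.8 CPM under repo-GAL4 in knockdown heads. These groups did not overlap, as in 18.7% of the genes tested in this direction, but the log2 fold change of -0.22 (SE 0.07, 95% interval -0.37 to -0.06) missed the threshold after adjustment (adjusted p = 0.0876 by edgeR). *Vps13* differed by 0.07 between the drivers in knockdown heads (95% interval -0.11 to 0.25, adjusted p = 0.578 by edgeR).

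None of the 3 members was thus called between drivers, either by edgeR or by DESeq2, against 4.04% of the genes tested in control heads and 4.45% in knockdown heads called by edgeR. At an unadjusted p under 0.05, edgeR gave 0 of 3 members in control heads and 1 of 3, *Vps13D*, in knockdown heads. Over all genes tested the counts were 1967 of 10028 and 2847 of 9940.

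The 4 bridge-like relatives had group means of 5.39 to 28.1 CPM per kb, and none was called by edgeR in either knockdown. *Atg2*, which moves lipid into growing autophagosomes, averaged 28.1 CPM per kb in neuron-specific knockdown heads and 26.6 in their controls, and 27.2 in glia-specific knockdown heads and 21.8 in their controls. Its log2 fold change was 0.08 in the neuron-specific and 0.32 (SE 0.13) in the glia-specific knockdown comparison, with an adjusted p by edgeR of 0.816 and 0.216. *tweek*, the fly BLTP1 gene, needed for synaptic vesicle recycling, had log2 fold changes of -0.11 and 0.14 (adjusted p by edgeR 0.670 and 0.686). *hob* (hobbit), which is needed for regulated secretion and body size, had 0.13 and 0.18 (adjusted p by edgeR 0.634 and 0.485), and *CG34126* had -0.02 and 0.03 (adjusted p by edgeR 0.929 and 0.897). *hob* was the relative nearest in level to *Vps13B*, at 5.91 CPM per kb in neuron-specific knockdown heads and 5.39 in their controls, and 6.35 in glia-specific knockdown heads and 5.59 in their controls. Under the unadjusted threshold of 0.05 edgeR gave 0 of 4 relatives in the neuron-specific comparison and 1 of 4, *Atg2*, in the glia-specific comparison. Over all genes tested the counts were 1442 of 9983 and 2216 of 9951.

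**Figure D3:**
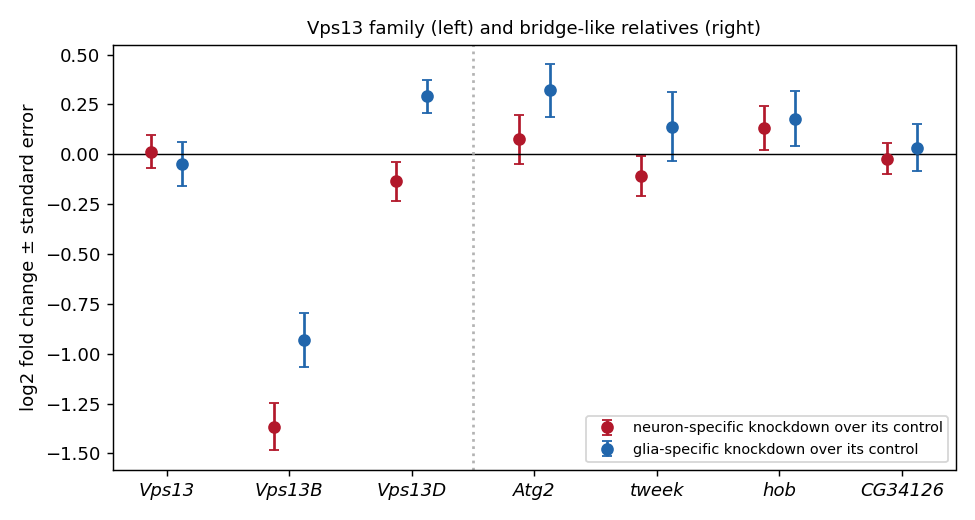
Log2 fold change of knockdown over control (vertical axis, points, with bars for the standard error of the edgeR fit) for the 3 family genes and 4 bridge-like relatives, with neuron-specific knockdown in red and glia-specific knockdown in blue. *Vps13B* stands at -1.37 and -0.93, and the other 6 genes lie between -0.14 and 0.32.

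Further lists covered genes that work with Vps13 proteins or beside them, namely 20 partners and contact-site factors, 16 other lipid transfer proteins and 8 genes of the Golgi matrix and retromer. Together with the relatives, 48 of 48 genes were tested. Of these, edgeR and DESeq2 each called 0 in the neuron-specific knockdown and 0 in the glia-specific knockdown. Over all genes edgeR called 0.16% and 3.6%. The counts of 0 are near these shares, so nothing about the lists is read from them. DESeq2 called 279 and 697 genes in all. At an unadjusted p under 0.05, edgeR gave 1 and 7 of the 48, against 1442 of 9983 and 2216 of 9951 genes tested. The median log2 fold change of the 48 genes was 0.02 in neurons and -0.05 in glia, beside 0.00 and -0.02 for all genes tested. For the difference between the effects of the drivers, edgeR and DESeq2 called 0 of the 48, against 3.01% of all genes called by edgeR. At an unadjusted p under 0.05, edgeR gave 2 of the 48, against 2169 of 10257 genes tested. Of the 2 list genes, *Npc2a* passed the adjusted p but not the 1.5-fold limit.

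Among the partners, whose median log2 fold change was -0.01 in neurons and -0.09 in glia, *Rab7*, the late endosomal GTPase, averaged 215 ± 24.5 CPM in neuron-specific knockdown heads and 253 ± 7.61 CPM in their controls (SD, n = 3 each; adjusted p = 0.338 by edgeR). In glia-specific knockdown heads it averaged 216 ± 15.7 CPM and in their controls 269 ± 28.7 CPM (SD, n = 3 each; log2 fold change -0.32, adjusted p = 0.187 by edgeR). *Syx6* and *Syx13* encode syntaxins whose human counterparts bind VPS13B. Their log2 fold changes were -0.04 and 0.12 in neurons and -0.22 and -0.24 in glia (adjusted p by edgeR 0.820 and 0.539 in neurons, 0.174 and 0.212 in glia).

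Among the other lipid transfer proteins the medians were 0.04 in neurons and -0.02 in glia. *Npc2a*, a carrier of sterol in the lysosome, averaged 137 ± 5.81 CPM in neuron-specific knockdown heads and 133 ± 4.81 CPM in their controls (SD, n = 3 each). In glia-specific knockdown heads it averaged 120 ± 4.59 CPM and in their controls 159 ± 12.6 CPM (SD, n = 3 each), a log2 fold change of -0.41 that missed the threshold (adjusted p = 0.0643 by edgeR). The difference between its neuron-specific and glia-specific log2 fold changes was 0.46 (SE 0.11, adjusted p = 0.0492 by edgeR), below the 1.5-fold limit of a call. *Esyt2*, a tether between the endoplasmic reticulum and the plasma membrane, had log2 fold changes of -0.14 and -0.29 in neurons and glia (adjusted p by edgeR 0.496 and 0.219). *slmo*, of the PRELI family of mitochondrial lipid carriers, was near 1 CPM, and its differences of 0.30 and 0.52 had standard errors of 0.44 and 0.29.

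In the Golgi matrix and retromer list the medians were 0.01 in neurons and -0.05 in glia. *Grasp65*, the Golgi stacking protein gene, averaged 54.8 ± 9.25 CPM in neuron-specific knockdown heads and 44.1 ± 3.67 CPM in their controls, and 56.5 ± 6.64 CPM in glia-specific knockdown heads and 42.1 ± 3.94 CPM in their controls (SD, n = 3 each). Its log2 fold changes of 0.31 and 0.42 did not pass (adjusted p by edgeR 0.356 and 0.0991). The retromer gene *Vps29* had 0.15 and -0.12, and the golgin gene *Golgin84* had -0.09 and -0.14, in neurons and glia (adjusted p by edgeR 0.553 and 0.544 for *Vps29*, 0.729 and 0.519 for *Golgin84*).

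The genes beside the members were examined to see whether the difference of *Vps13B* extended along the chromosome. The tested gene next to it on each side did not share it. *eIF2Balpha*, which encodes a subunit of the translation factor eIF2B and is transcribed away from *Vps13B* with 89 bases between them, had 21.0, 20.5 and 17.5 CPM in neuron-specific knockdown heads, against 20.1, 19.2 and 20.7 CPM in their controls. It had 20.5, 18.5 and 19.9 CPM in glia-specific knockdown heads, against 18.4, 24.4 and 22.1 CPM in their controls. Both pairs of groups overlapped, and the log2 fold changes were -0.02 and -0.14. The tachykinin receptor gene *TkR99D*, 2588 bases away on the other side, had log2 fold changes of -0.02 and 0.02.

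Of the 10 nearest tested genes, 5 on each side of *Vps13B*, edgeR called 0 in the neuron-specific knockdown and 1 in the glia-specific knockdown. DESeq2 gave the same counts. At an unadjusted p under 0.05, edgeR gave 2 and 4 of the 10, against 1442 of 9983 and 2216 of 9951 genes tested. The called gene was the neuropeptide gene *Capa*, which was higher in glia-specific knockdown heads at 84.1, 69.7 and 80.0 CPM, against 45.2, 51.2 and 34.0 CPM in their controls (log2 fold change 0.84, adjusted p = 0.0371 by edgeR). This call was lost without glia control replicate 1 and without each of glia-specific knockdown replicates 1, 2 and 3. The median log2 fold change of the 10 neighbours was -0.00 in neurons and -0.14 in glia. In glia only 2 of the 10, *Capa* and *TkR99D*, were higher, and the others were lower. *trp*, *CG15522* and *CG7903* had -0.58, -0.33 and -0.34 in glia (adjusted p by edgeR 0.144, 0.165 and 0.0876). Each had every glia-specific knockdown library below every control, as in 13.6% of all genes tested. In neurons their log2 fold changes were 0.24, -0.00 and -0.02. *CG7896* had the widest standard errors. Its counts were 484 in neuron-specific knockdown replicate 3 and 318 in glia control replicate 3, the libraries with high muscle markers, against 5 to 38 counts elsewhere. The 10 neighbours of *Vps13* had medians of -0.02 and 0.13 and those of *Vps13D* 0.01 and 0.08. EdgeR called 0 of these 20 genes in either knockdown, with 2 and 1 at an unadjusted p under 0.05 in neurons and 3 and 2 in glia.

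Within 500 kb on each side of *Vps13B*, a window set after the values were seen, 1 of 110 tested genes, *Diedel*, was at least 1.5-fold lower in both knockdowns, against 0 of 113 around *Vps13* and 0 of 77 around *Vps13D*. In glia alone, 11 of the 110 genes around *Vps13B* were at least 1.5-fold lower, against 6 of 113 around *Vps13*, 1 of 77 around *Vps13D* and 6.48% of all genes tested, and in neurons alone the counts were 3, 1 and 0, with 3.22% of all genes. The median log2 fold change of the 110 genes was 0.04 in neurons and -0.08 in glia. Over chromosome arms, genes at least 1.5-fold lower in both knockdowns made up 0.917% of the 2400 genes tested on 3R. They made up 1.07% on 3L and 0.460 to 0.555% on 2L, 2R and X, and were 1 of 90 on chromosome 4.

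**Figure D4:**
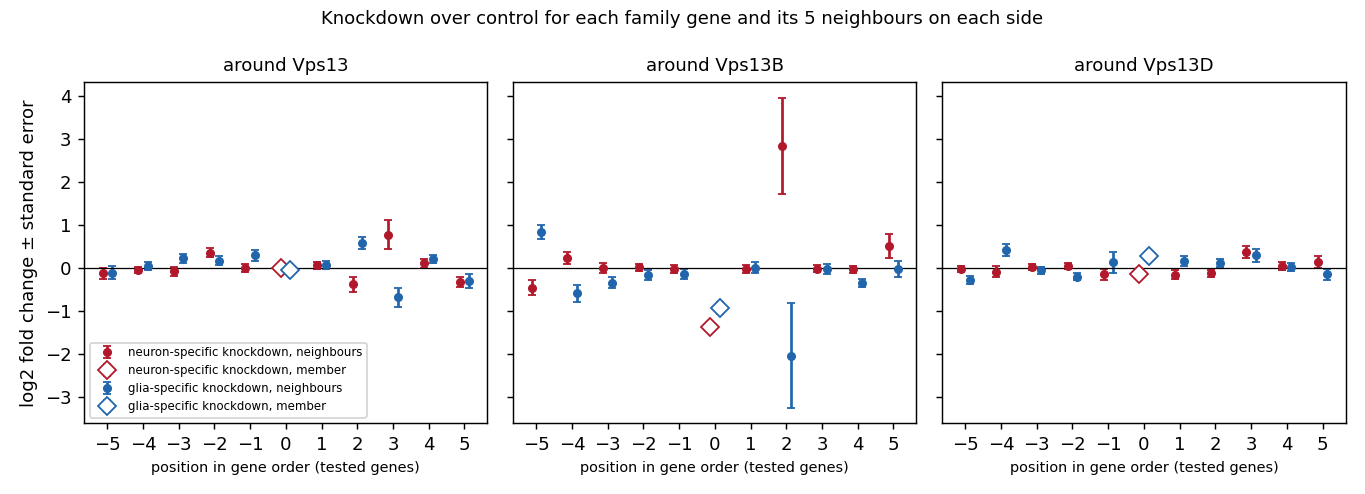
Log2 fold change of knockdown over control (vertical axis, with bars for the standard error of the edgeR fit) for *Vps13*, *Vps13B* and *Vps13D* (diamonds at position 0) and the 5 tested genes on each side in gene order (points), with neuron-specific knockdown in red and glia-specific knockdown in blue. *Vps13B* lies at -1.37 and -0.93 between adjacent neighbours at -0.14 to 0.02, *Capa* at position -5 is at -0.45 and 0.84, and the wide bars at position 2 belong to *CG7896*.

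The genes whose log2 CPM followed each member most closely over the 12 libraries were taken from 10256 genes. These correlations are descriptions over libraries that share 4 genotypes, so any gene that differs between the same genotypes correlates too. For *Vps13B* the closest were *l(2)k05911*, a gene on 2L for a serine protease-like protein (r = 0.977), *mthl8* on 3L (r = 0.957) and the cuticle protein gene *TwdlG* on 3R (r = 0.938). *l(2)k05911* was at 1.96, 2.17 and 2.11 CPM in neuron-specific knockdown heads, against 4.24, 6.002 and 4.72 CPM in their controls, and at 1.81, 2.13 and 2.15 CPM in glia-specific knockdown heads, against 4.37, 3.69 and 3.59 CPM in their controls. Its 6 knockdown libraries lay below all 6 controls, as did those of *mthl8* and *TwdlG*. These genes were picked for following *Vps13B*, so nothing is read from this, and the share of all genes with this pattern was not counted. After the group means were taken out, the correlations with *Vps13B* were 0.66 for *l(2)k05911*, -0.09 for *mthl8* and 0.57 for *TwdlG*.

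For *Vps13* the closest genes were the ubiquitin ligase gene *Ufd4* (r = 0.899), the kinase gene *Src42A* (r = 0.898) and *plum*, which encodes an immunoglobulin superfamily protein (r = 0.885), and their correlations within groups were 0.94, 0.93 and 0.88. For *Vps13D* they were *CG33172* (r = 0.922), *4E-T*, which encodes a partner of the cap-binding protein (r = 0.917), and *lt*, the fly Vps41 gene of the HOPS tethering complex (r = 0.901). Their within-group values were 0.90, 0.82 and 0.72. *lt* averaged 48.6 CPM in neuron-specific knockdown heads and 61.9 CPM in their controls, and 67.9 CPM in glia-specific knockdown heads and 44.2 CPM in their controls, the same order of group means as *Vps13D*.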

How the data were processed

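RNA of 12 whole-head samples was prepared by the authors with a stranded mRNA kit. The reads were trimmed with seqtk, aligned to BDGP Release 6 (dm6) with Bowtie2 and sorted with SAMtools. The deposited table holds counts of reads per FlyBase gene, not normalized, and the counting tool is not given in the sources used here. Further tables with the authors' own DESeq2 comparisons (means, fold changes, standard errors, statistics and p-values) were not used. Samples were grouped by the genotype in their labels, which call the replicates biological, and no batch is named.

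Each comparison of 6 libraries was fitted with edgeR 4.0.16 in R 4.3.3 (filterByExpr, TMM, quasi-likelihood F test, two-sided), and the difference between drivers as an interaction over 12 libraries. Benjamini-Hochberg adjustment ran over all genes tested, with calls at 0.05 for the adjusted p and 1.5-fold for the change. Alternatives used DESeq2 1.42.0, other size factors, no filter, a fit of all 12 libraries, a replicate block and leaving out each library. Exon lengths and overlaps came from the Ensembl annotation of dm6, and symbols of 17599 of 17737 genes from a gene name table.

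The members and gene lists were chosen with earlier results of these data known. Genes named were the members, the bridge-like relatives, called genes of each other list or else the 3 with the largest change, *PIG-A* and *mthl8* as label checks, called genes among 5 neighbours on each side, and the 3 most correlated genes per member. *eIF2Balpha*, *TkR99D*, *trp*, *CG15522*, *CG7903*, *CG7896*, *Diedel* and *Uba1* were named after their values were seen. The scripts were tested on simulated data. Protein and promoter sequences were not analysed here.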

Additional observations from a re-analysis of the deposited data

Results flagged for a closer look

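*Uba1*, which encodes the ubiquitin-activating enzyme and acts with Vps13D in fly intestinal cells, was lower in every neuron-specific knockdown library than in all its controls and higher in every glia-specific knockdown library than in all its controls. It averaged 213 ± 15.9 CPM in neuron-specific knockdown heads and 234 ± 4.99 CPM in their controls, and 242 ± 7.003 CPM in glia-specific knockdown heads and 225 ± 7.75 CPM in their controls (SD, n = 3 each). Among all genes tested, 11% had every knockdown library below every control in neurons and 15.9% had every knockdown library above every control in glia. *Uba1* was singled out among 51 family and related genes after these values were seen. The log2 fold change was -0.13 in the neuron-specific and 0.10 in the glia-specific knockdown comparison. The difference between them was -0.23 (SE 0.11) and did not pass by edgeR's interaction test (adjusted p = 0.263).

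*Npc2a*, the gene for a lysosomal sterol carrier, had log2 fold changes of 0.05 in neurons and -0.41 in glia. The difference of 0.46 (SE 0.11) passed the adjusted p of edgeR's interaction test (adjusted p = 0.0492) but was below 1.5-fold.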

How the results depend on the processing

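The log2 fold changes of *Vps13B* and *Vps13D* kept their direction in each knockdown under every alternative run, and so did *Vps13* in glia, while in neurons *Vps13* lay on either side of 0. Leaving out each library in turn gave -1.46 to -1.26 for *Vps13B* in neurons and -1.06 to -0.82 in glia, -0.03 to 0.06 and -0.13 to -0.01 for *Vps13*, and -0.21 to -0.04 and 0.25 to 0.33 for *Vps13D*. Between drivers in control heads *Vps13* turned from 0.02 to -0.000427 without the filter, and ranged from -0.078 to 0.052 without single libraries (-0.03 without neuron control replicate 2, -0.078 without glia control replicate 2). Calls over all genes moved far more: 16 in neurons became 49 without the filter, 279 by DESeq2, 30 in the 12-library fit and 1 without neuron control replicate 2 up to 199 without neuron-specific knockdown replicate 2; 358 in glia became 697 by DESeq2, 538 in the 12-library fit and 3 without glia control replicate 1 up to 676 without glia control replicate 3. Between drivers, 405 in control heads became 647 by DESeq2 and 92 to 805 without single libraries, and 442 in knockdown heads became 788 and 82 to 558. The interaction moved from 309 to 681 by DESeq2 and 130 to 485 without single libraries. Deviations of same-numbered replicates correlated across genes at r = -0.05 to -0.00 in the neuron-specific comparison and -0.15 to 0.15 in the glia-specific comparison. Between drivers r was -0.14 to -0.03 in controls and -0.23 to 0.01 in knockdowns. Neuron-specific knockdown and glia control, whose replicates 3 were both rich in muscle markers, were not set against each other. A batch shared by replicate number was not tested. With a replicate block the calls were 2 in neurons, 212 in glia, 205 between drivers in controls and 136 in knockdowns, and the *Vps13B* values were -1.36 and -0.91. The count of called neighbours of *Vps13B* in glia, 1 of 10, was 0 under the block and 0 to 1 without single libraries. Each value rests on 3 libraries a group, with 748 to 2682 counts of *Vps13B* in a library.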
